A study of Caenorhabditis elegans with 8 samples.

Results

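The genes described here make the cytosolic HSP70 and HSP90 chaperones of the nematode Caenorhabditis elegans, several of their partners, and the heat shock transcription factor HSF-1. They were chosen by name, and all 10 (hsp-1, hsp-70, F44E5.4, F44E5.5, hsp-110, hsp-90, dnj-12, dnj-13, hsf-1 and stip-1) were found among the 46433 rows of the gene table. Their transcripts were measured by RNA sequencing of whole larvae of 2 strains, with 4 libraries each, named replicates A to D. N2 is the wild type, and HBR227 has the genotype aptf-1(gk794), which alters the AP2 transcription factor gene aptf-1, needed by the sleep-inducing neuron RIS. Both strains were given no treatment, and their eggs were released with hypochlorite and kept in M9 buffer, so that larvae without food were collected in L1 arrest at 48 hours. At issue is how these chaperone transcripts stand in arrested larvae when aptf-1 is mutated.

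HSP70 proteins bind unfolded stretches of other proteins and release them in a cycle driven by ATP. J-domain proteins bring clients to HSP70 and start ATP hydrolysis, HSP110 proteins exchange the nucleotide, and HSP90 then acts on a narrower set of clients handed over through co-chaperones. HSF-1 is the transcription factor that raises many of these genes when proteins unfold, and in worms it is also needed for development and a normal lifespan. The names are easily confused, since stip-1 encodes the septin- and tuftelin-interacting protein, related to a human splicing factor, whereas the worm gene for the HSP70-HSP90 organising protein (STI1 or HOP) is sti-1. The gene sti-1 is therefore described with the co-chaperones, and stip-1 is given apart from the chaperones.

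The libraries held 43.6 to 65 M counts (mega-counts), and every count of these 10 genes was at least 1770, where counting error alone is 2.38%. Levels are CPM, counts relative to library size, scaled by the trimmed mean of M values (TMM), and differences are log2 fold changes of HBR227 minus N2. Across the table, 17522 genes were tested and 21.5% were called at an adjusted p of 0.05, 11.2% as higher in HBR227 and 10.4% as lower. The mutated gene aptf-1 had 3.73 ± 0.463 CPM in N2 against 0.981 ± 0.176 in HBR227 (SD over 4 libraries each), with all 4 HBR227 libraries below all N2 libraries. HBR227 A stood apart from the other 7 libraries, with a Pearson correlation across genes of 0.972 to 0.973 with the other HBR227 libraries, while HBR227 B, C and D correlated with each other at 0.994 or more. Summed CPM of the 2 muscle markers myo-3 and unc-54 was 4759 in HBR227 A against 6052 to 6877 in the other 7 libraries. The 2 germline markers glh-1 and pgl-1 summed to 62.7 CPM in HBR227 A against 24.2 to 32.9. The 2 neuron markers rab-3 and unc-119 summed to 68.9 CPM there against 87.4 to 95.9. The drop was in rab-3 alone (44.4 CPM in HBR227 A against 63.4 to 71.3 in the other 7 libraries). In HBR227 A, unc-119 stood at 24.5 CPM, within the 23.1 to 25.7 of the other 7 libraries. The epidermal markers dpy-7 and rol-6 summed to 11.1 to 15.9 CPM in N2, 11.3 in HBR227 A and 5.55 to 7.15 in HBR227 B, C and D. That sum was nearly all dpy-7 (mean 12.8 CPM in N2 and 6.95 in HBR227). rol-6 went the other way at a very low level, from 0.357 to 0.649 CPM, and did not pass. The intestinal markers elt-2 and ges-1 summed to 48.2 to 55.3 CPM in N2, 53.5 in HBR227 A and 58.5 to 61.3 in the others. The rise was in ges-1 (mean 22.9 CPM in N2 and 31.1 in HBR227), while elt-2 stood at 28.8 and 27.5 CPM. Of these 10 tissue markers, ges-1 was called higher and dpy-7 lower. No muscle, intestine, neuron, epidermis, germline or adult yolk marker was at 0 in any library. The 6 yolk genes of adults summed to 7.87 to 8.87 CPM in N2 and 9.90 to 13 in HBR227, with vit-6 called higher. Alone of the 6, vit-1 went the other way, from a mean of 1.66 CPM in N2 to 1.01 in HBR227. All 4 HBR227 libraries were below all N2 libraries for vit-1, but it did not pass (log2 fold change -0.71 ± 0.30, SE). Without HBR227 A it was called lower, as were 23.3% of all genes. Results are therefore given with and without HBR227 A, and the part of these markers in them was not tested. In whole animals, fewer cells of a type and less RNA per cell cannot be told apart.

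Most of the chaperone transcripts were more abundant in the aptf-1 mutant, by modest amounts. Of the 10 genes, 7 rose and none fell, against 11.2% of all tested genes that were called higher. The 7 include F44E5.4 and F44E5.5, whose counts were almost the same in each library. This count and the median below are therefore not of 10 separate measurements. The rises ran from 0.33 for hsp-90 to 0.58 for dnj-13, and hsp-70, hsf-1 and stip-1 did not pass the test. The median log2 fold change over the 10 genes was 0.35, beside 0.00 over all genes tested. The genes were chosen with earlier results of these data known, so this count describes them and is not independent evidence.

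**Figure D1:**
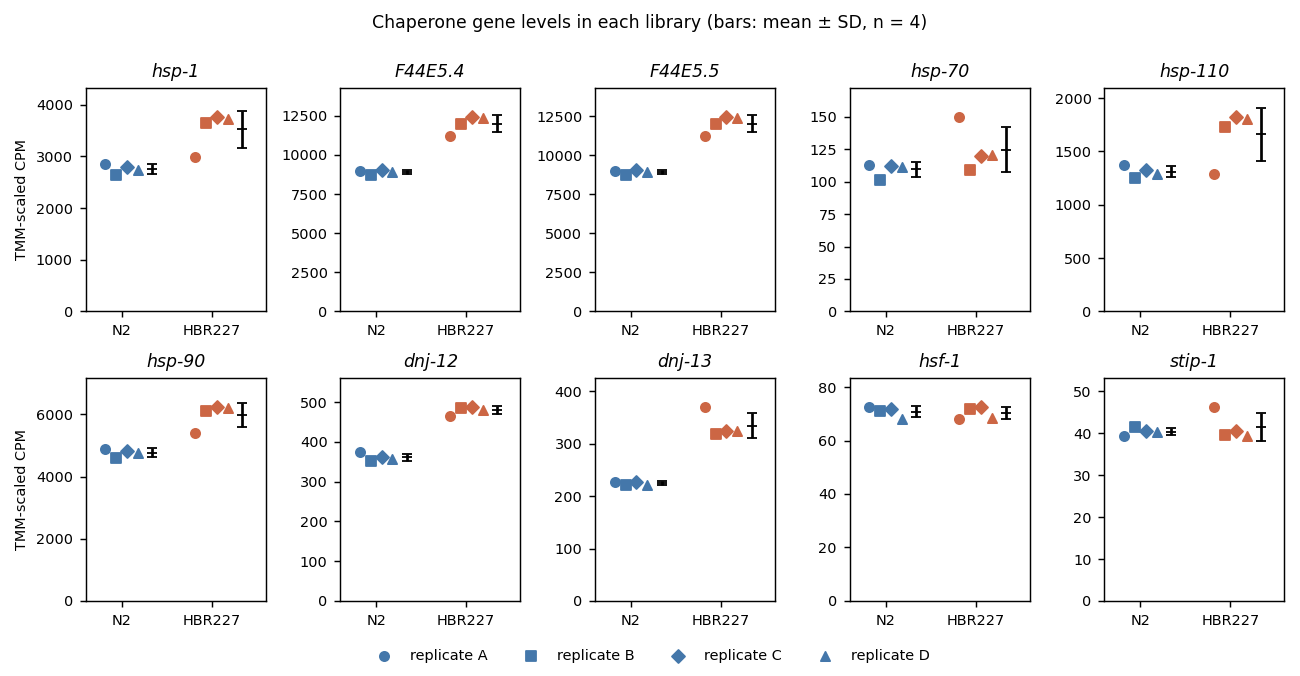
TMM-scaled CPM (y axes, starting at 0) of the 10 genes in each N2 and HBR227 library. Points are libraries, with a marker shape for each replicate letter, and the black bars are the mean ± SD of 4. F44E5.4, F44E5.5, hsp-1, hsp-90, dnj-12 and dnj-13 have all 4 HBR227 points above all N2 points, while hsp-110 in HBR227 A, at 1289 CPM, lies within the N2 range.

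The constitutive HSP70 gene hsp-1 (WBGene00002005, chromosome IV, 17278959 to 17281330, plus strand; WBcel235) encodes the main HSP70 of unstressed worm cytosol. It had 2857, 2632, 2796 and 2732 CPM in the N2 libraries A to D, and 2995, 3639, 3759.5 and 3720.0 CPM in the HBR227 libraries A to D. All 4 mutant libraries lay above all 4 wild-type libraries, HBR227 A by the least. The means were 2754 ± 96.3 CPM for N2 against 3528 ± 359 CPM for HBR227 (SD over 4 libraries each), and the log2 fold change was 0.36 ± 0.07 (SE; quasi-likelihood test of edgeR, adjusted p = 0.00766). Without HBR227 A it was 0.43 ± 0.04 (adjusted p = 3.2e-07).

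F44E5.4 and F44E5.5 are heat-inducible HSP70 genes that are near-identical copies of each other. They lie head to head on chromosome II, at 11757107 to 11759311 on the minus strand and 11759662 to 11761861 on the plus strand, with 350 bp between their starts. F44E5.4 had 9002, 8701, 9021 and 8893 CPM in the N2 libraries A to D, and 11222, 12012, 12418 and 12379.6 CPM in the HBR227 libraries A to D. The levels of F44E5.5 were almost the same in each library, at 9016, 8721, 9043 and 8909.6 CPM in N2 and 11253, 12032, 12439 and 12399 CPM in HBR227. Both copies were higher in all 4 mutant libraries than in any N2 library. Counts of F44E5.5 exceeded those of F44E5.4 by only 0.158% to 0.272%. The excess had the same direction in every library, from 639 counts in N2 A to 1400 in HBR227 A. In every library the exact 95% binomial interval of the F44E5.5 share of the pair, from 49.9% at the lowest bound to 50.2% at the highest, included an equal split. That interval takes each count as a separate read given to 1 copy. If shared reads were counted at both copies this does not hold, so the interval does not decide how the reads were split. How reads that match both copies were counted is not given in the sources used here, so the separate values are uncertain, and if such reads were counted at both genes the sum of the pair holds them more than once. With the pair summed as 1 gene, the log2 fold change was 0.43 (adjusted p = 0.000443), and without HBR227 A it was 0.46 (adjusted p = 1.2e-07). The pair took 1.82% to 1.86% of all counts in N2 libraries, 2.13% in HBR227 A and 2.37% to 2.40% in HBR227 B, C and D. The counts of all 10 genes made 2.80% to 2.88% of each N2 library and 3.15% to 3.63% of each HBR227 library. As deposited, the pair was the larger part of these counts, which need not hold if shared reads were counted at both genes.

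The gene named hsp-70 (WBGene00002026, chromosome I, 9320325 to 9322519, minus strand), also a heat-inducible HSP70 gene, was far lower and did not pass the test. It had 113, 101, 112 and 111 CPM in the N2 libraries A to D, and 149.8, 109, 119.6 and 120.5 CPM in the HBR227 libraries A to D. The HBR227 A value was the highest of the 8, and HBR227 B, at 109 CPM, lay within the N2 range. The log2 fold change was 0.19 ± 0.09 (SE; adjusted p = 0.167), with a 95% interval of -0.01 to 0.39, and 0.09 ± 0.05 without HBR227 A (adjusted p = 0.133). The interval includes 0 and also the rise of hsp-1 (0.36), so a change like that of hsp-1 is neither shown nor set aside with all 8 libraries. The rises of F44E5.4 and F44E5.5 (0.43 each) lay above its upper end, though their own intervals (0.32 to 0.54) overlapped it. Without HBR227 A the interval was -0.01 to 0.19, below the intervals of hsp-1 (0.34 to 0.51) and F44E5.4 (0.38 to 0.55) in the same fit.

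The nucleotide exchange factor gene hsp-110 (WBGene00016250, chromosome III, 8443910 to 8446909, minus strand) rose, with a call that depended on single libraries. It had 1369, 1249, 1325 and 1284 CPM in the N2 libraries A to D, and 1289, 1727, 1821 and 1803 CPM in the HBR227 libraries A to D. HBR227 A lay among the N2 libraries, whereas HBR227 B, C and D were above them. The means were 1307 ± 51.9 CPM for N2 against 1659.9 ± 250.5 CPM for HBR227 (SD over 4 libraries each), and the log2 fold change was 0.34 ± 0.10 (SE; adjusted p = 0.0349). Without HBR227 A the difference was 0.45 ± 0.04 (adjusted p = 2.7e-07). With any other single library left out, the adjusted p was between 0.0653 and 0.108, so the call was lost in each of those 7 fits.

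Both J-domain genes rose. dnj-13 (WBGene00001031, chromosome II, 11545701 to 11547360, plus strand), a relative of human DNAJB1, had 228, 222, 227 and 221 CPM in the N2 libraries A to D, and 370.4, 319, 325 and 324 CPM in the HBR227 libraries A to D. The 2 strains were far apart, and HBR227 A was the highest library here, not the lowest as for hsp-1. The log2 fold change was 0.58 ± 0.06 (SE; adjusted p = 0.000197), and 0.52 ± 0.04 without HBR227 A (adjusted p = 7.9e-09). dnj-12 (WBGene00001030, chromosome I, 14756904 to 14758790, plus strand), a relative of human DNAJA1, had 374, 352, 363 and 357 CPM in the N2 libraries A to D, and 466, 485, 488 and 479 CPM in the HBR227 libraries A to D. All 4 HBR227 libraries were again above all N2 libraries, with an SD of 9.41 CPM in N2 and 9.73 in HBR227. The log2 fold change of dnj-12 was 0.41 ± 0.04 (SE; adjusted p = 0.000261), close to the 0.42 ± 0.04 found without HBR227 A.

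The single cytosolic HSP90 gene of the worm, hsp-90 (WBGene00000915, chromosome V, 14684918 to 14688545, plus strand), also known as daf-21, had 4897, 4579.5, 4832 and 4748 CPM in the N2 libraries A to D, and 5408, 6097, 6241 and 6201 CPM in the HBR227 libraries A to D. The strains did not overlap, and HBR227 A was the lowest mutant library. The means were 4764 ± 137 CPM for N2 against 5987 ± 390.4 CPM for HBR227 (SD over 4 libraries each), and the log2 fold change was 0.33 ± 0.06 (SE; adjusted p = 0.00316), and 0.38 ± 0.04 without HBR227 A (adjusted p = 1.1e-06).

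The transcript of the regulator itself differed by less than the spread between libraries. hsf-1 (WBGene00002004, chromosome I, 11953507 to 11963085, minus strand) had 72.4, 71.0, 71.9 and 68.1 CPM in the N2 libraries A to D, and 67.9, 71.9, 72.6 and 68.6 CPM in the HBR227 libraries A to D. The strains overlapped fully, and the log2 fold change was -0.01 ± 0.05 (SE; adjusted p = 0.886), with a 95% interval of -0.12 to 0.10. That interval lies below the interval of dnj-13 (0.45 to 0.70) and of hsp-90 (0.20 to 0.46), and a transcript level says nothing of the activity of the HSF-1 protein. stip-1 (WBGene00007412, chromosome II, 10347084 to 10350012, minus strand) had 39.4, 41.4, 40.5 and 40.2 CPM in the N2 libraries A to D, and 46.3, 39.6, 40.6 and 39.4 CPM in the HBR227 libraries A to D. Its strains overlapped as well, with HBR227 A the highest library, and the log2 fold change was 0.04 ± 0.07 (SE; adjusted p = 0.727; 95% interval -0.11 to 0.18). Of the 3 genes that did not pass, none had an unadjusted p under 0.05 in edgeR, and DESeq2 and limma voom called none of them.

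**Figure D2:**
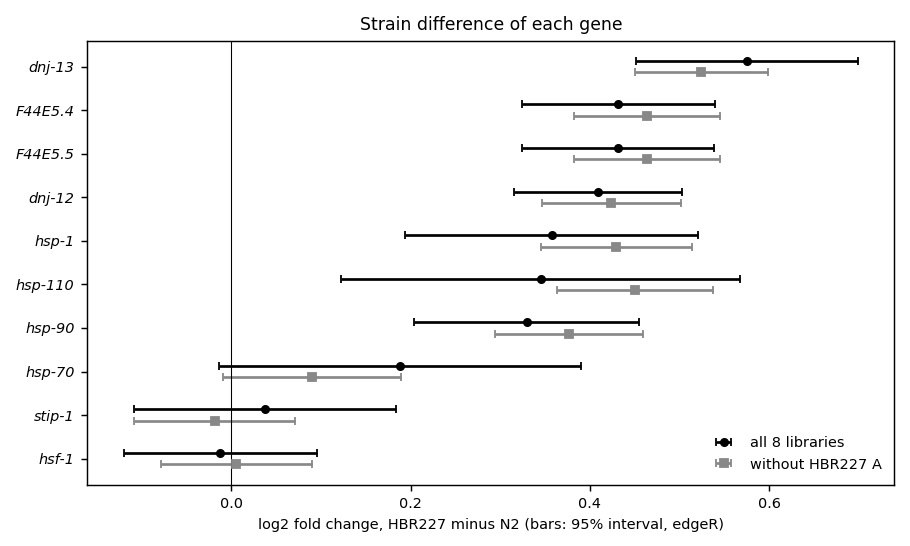
Log2 fold change of HBR227 minus N2 (x axis) with its 95% interval for the 10 genes, from all 8 libraries (black circles) and without HBR227 A (grey squares). The intervals of 7 genes lie above 0 in both fits, those of hsp-70, stip-1 and hsf-1 include 0, and the black interval of hsp-110 is the widest at 0.12 to 0.57.

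Full separation of the strains was as frequent in one direction as in the other over the whole table. All 4 HBR227 libraries were above all 4 N2 libraries at 14.5% of the genes tested and below them at 14.4%. Of the chaperone genes, hsp-1, F44E5.4, F44E5.5, hsp-90, dnj-12 and dnj-13 were separated upward and none downward. In the fit without HBR227 A, 21.0% of all genes were called higher and 23.3% lower, and the same 7 chaperone genes were called higher with none lower.

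Levels per length of transcript gave the order of abundance. In CPM per kb of exon, F44E5.5 (4267 ± 69.8) and F44E5.4 (4248 ± 70.03) led in N2, followed by hsp-90 (2019.5 ± 58.2) and hsp-1 (1329 ± 46.5; SD, n = 4). The exchange factor hsp-110 stood at 484 ± 19.2 CPM per kb, dnj-12 at 216 ± 5.62 and dnj-13 at 161 ± 2.51. The lowest were hsp-70 (53.2 ± 2.69), hsf-1 (28.6 ± 0.762) and stip-1 (15.7 ± 0.321). The order was the same in HBR227, where F44E5.5 stood at 5754 ± 263 and hsp-90 at 2538 ± 166 CPM per kb. F44E5.4 and F44E5.5 overlapped over the libraries of each strain, and no other neighbours in the order did. The transcripts of the heat-inducible pair, as counted here, thus stood above the constitutive hsp-1 in both strains, with the limit on shared reads given above.

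**Figure D3:**
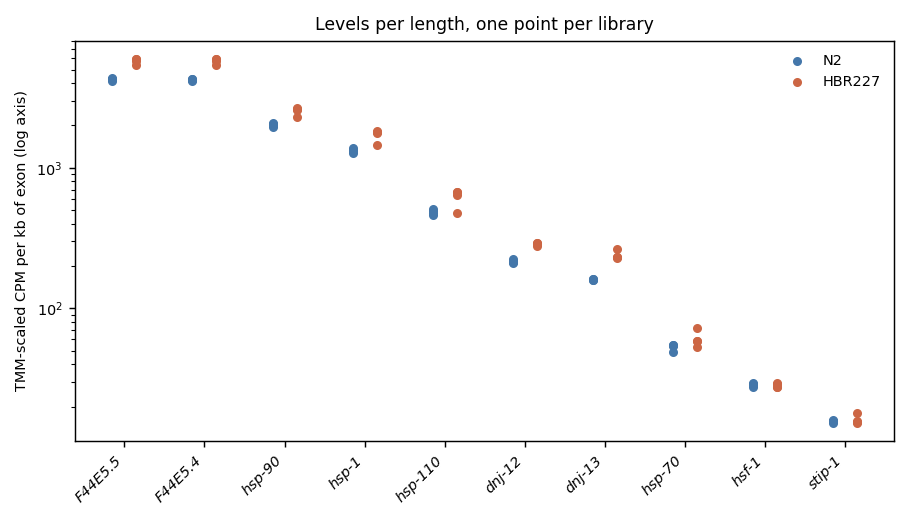
TMM-scaled CPM per kb of exon (log axis) of the 10 genes, ordered by their mean in N2, with 1 point per library. N2 means run from 15.7 for stip-1 to 4267 for F44E5.5, and apart from F44E5.4 and F44E5.5, neighbouring genes do not overlap within a strain.

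Relative to hsp-1 in the same library, HBR227 A stood off from the other mutant libraries, and HBR227 B, C and D were above every N2 library for dnj-13 and below every N2 library for hsp-90 and sti-1. Dividing counts by the hsp-1 count of the same library needs no scaling between libraries. The hsp-90 to hsp-1 ratio was 1.71, 1.74, 1.73 and 1.74 over N2 A to D, against 1.81, 1.68, 1.66 and 1.67 over HBR227 A to D. HBR227 A lay above every N2 library and HBR227 B, C and D lay below every N2 library. For hsp-110 the ratio was 0.474 ± 0.00384 in N2 (SD, n = 4), 0.430 in HBR227 A and 0.475, 0.484 and 0.485 in HBR227 B, C and D, of which C and D were above every N2 library. The dnj-13 ratio was 0.0797, 0.0842, 0.0813 and 0.0810 in N2 and 0.124, 0.0877, 0.0864 and 0.0870 in HBR227. All mutant libraries were thus above all N2 libraries for dnj-13, and HBR227 A was highest. The log2 difference of the dnj-13 ratio was 0.22 over all 8 libraries (exact two-sided permutation p = 0.0286, the smallest this design allows, and 0.171 adjusted over the 6 ratios). Without HBR227 A the difference was 0.09. A single fully separated ratio cannot pass after adjustment over 6 in a design of this size, so the adjusted p-values do not show that the ratios were alike. For the summed F44E5.4 and F44E5.5 counts the ratio was 6.48 ± 0.131 in N2, 7.50 in HBR227 A and 6.61 to 6.66 in the other mutant libraries. The dnj-12 ratio was 0.131 ± 0.00175 in N2, 0.156 in HBR227 A and 0.129 to 0.133 in the others. For sti-1 it was 0.0317 ± 0.00104 in N2, 0.0331 in HBR227 A and 0.0281 to 0.0293 in the others, which lay below all N2 libraries.

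**Figure D4:**
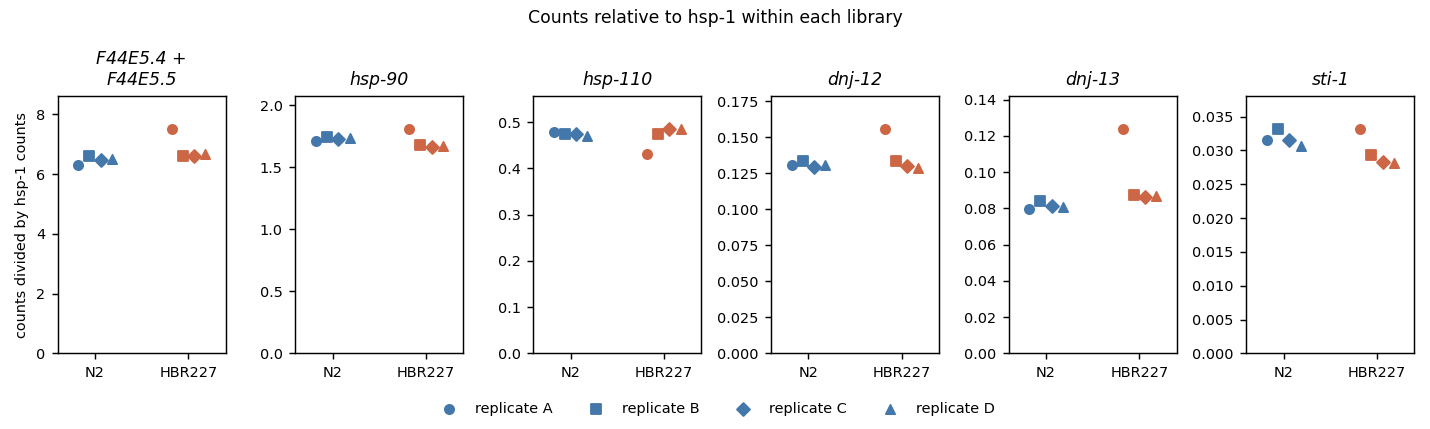
Counts of each gene divided by hsp-1 counts of the same library (y axes, starting at 0) for N2 and HBR227, with 1 point per library and a shape for each replicate letter. HBR227 A stands off from the other 3 mutant libraries in every panel, for dnj-13 at 0.124 against 0.0864 to 0.0877.

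Co-chaperones of the same machinery rose in part. Among 12 tested co-chaperone genes of cytosolic HSP70 and HSP90, 5 rose, none fell and 7 stayed short of the threshold, where 11.2% of all genes were called higher and 10.4% lower. The median log2 fold change of the 12 was 0.14. The largest rise among the 12 was in unc-23, which encodes a BAG2-type HSP70 regulator needed for muscle attachment. It had 155, 147, 150.2 and 144 CPM in the N2 libraries A to D, and 192, 224, 236 and 234 CPM in the HBR227 libraries A to D, with no overlap of the strains and a log2 fold change of 0.57 ± 0.07 (SE; adjusted p = 0.000551). The HSP90-binding immunophilin gene fkb-6 rose from 148 ± 2.67 to 185 ± 4.74 CPM (SD, n = 4; 0.32 ± 0.04). The HSP70-HSP90 organising gene sti-1 had 90.1, 87.2, 88.2 and 83.7 CPM in the N2 libraries A to D, and 99.1, 107, 106 and 105 CPM in the HBR227 libraries A to D. It was higher in every mutant library, with a log2 fold change of 0.25 ± 0.05 (SE; adjusted p = 0.00501). The J-domain gene dnj-19 (0.24 ± 0.04) and ahsa-1 (0.15 ± 0.04), which encodes an activator of the HSP90 ATPase, rose by less. The ahsa-1 call (adjusted p = 0.0304) was lost with N2 A, C or D or HBR227 B, C or D left out (adjusted p = 0.0515 to 0.0686), and its difference with total counts as the scale was 0.05. On the opposite strand, C01G10.9 overlaps 7.54% of the ahsa-1 exon length, T19A5.3 4.17% of that of unc-23 and clec-264 1.76% of that of fkb-6. For hip-1 and bag-1 the shares are 6.87% (shpk-1) and 4.46% (tmed-3). Among those that did not pass were the p23 gene daf-41 (0.12 ± 0.05), the kinase co-chaperone cdc-37 (0.08 ± 0.08), the phosphatase gene pph-5 (0.17 ± 0.06) and the HSP70-interacting gene hip-1 (0.03 ± 0.05). The other 3 were bag-1 (-0.03 ± 0.08), the CHIP ubiquitin ligase gene chn-1 (-0.09 ± 0.08) and the myosin chaperone gene unc-45 (-0.27 ± 0.15). Without HBR227 A, 7 of the 12 were higher, and chn-1 and unc-45 were lower, beside 21.0% of all genes higher and 23.3% lower. In that edgeR fit chn-1 was at -0.15 ± 0.05 (adjusted p = 0.0347) and unc-45 at -0.12 ± 0.05 (adjusted p = 0.0497). HBR227 A had 45.7 CPM of unc-45, against 73.3 to 77.8 in HBR227 B, C and D. The call of daf-41 as higher there was also near the threshold (0.09 ± 0.04, adjusted p = 0.0465). With all 8 libraries and total counts as the scale, which moved the median of all genes to -0.11, 3 of the 12 were higher and none lower. There sti-1 no longer passed (0.15, adjusted p = 0.0571).

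Of 6 known regulators of HSF-1 tested, 1 was called with all libraries, near the 21.5% of all genes called in either direction. None rose, and ccar-1, whose product restrains HSF-1 through the deacetylase SIR-2.1, fell from 342 ± 16.8 to 290.2 ± 13.8 CPM (SD, 4 libraries each), a difference of -0.24 ± 0.05 (adjusted p = 0.0116). The genes hsb-1 (-0.14 ± 0.11), ddl-1 (-0.21 ± 0.12) and ddl-2 (0.19 ± 0.08), whose products bind HSF-1 and hold it inactive, did not pass with all 8 libraries. Without HBR227 A, when 21.0% of all genes were called higher and 23.3% lower, 5 of the 6 were called. In that fit hsb-1 (-0.25 ± 0.06, adjusted p = 0.00454) and ddl-1 (-0.32 ± 0.09, adjusted p = 0.00737) were lower, while ddl-2 (0.20 ± 0.07) and sir-2.1 (0.11 ± 0.04) were higher. sam-4 overlaps 13.5% of the ddl-1 exon length on the same strand. The remaining gene, hsf-2, had 0.360 CPM in N2 and did not pass (-0.15 ± 0.34).

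The HSP70 and HSP90 relatives of other compartments did not move as one group. Of 8 tested, 2 rose, 1 fell and 5 did not pass, beside 11.2% of all genes called higher and 10.4% lower, and the median log2 fold change was -0.01. The mitochondrial HSP70 gene hsp-6 had 897, 807, 877 and 859 CPM in the N2 libraries A to D, and 1137, 1095, 1184 and 1164 CPM in the HBR227 libraries A to D. It was higher in all 4 mutant libraries (log2 fold change 0.41 ± 0.05, adjusted p = 0.000561). The inducible endoplasmic reticulum HSP70 gene hsp-4 rose (0.39 ± 0.09, adjusted p = 0.0157), while its constitutive counterpart hsp-3 did not pass (0.05 ± 0.05). The hsp-4 call was lost with total counts as the scale (0.28, adjusted p = 0.0541). T14G8.3, a relative of the endoplasmic reticulum HSP110-type protein HYOU1, had 184, 226, 200.3 and 192 CPM in the N2 libraries A to D, and 95.3, 107, 96.1 and 98.5 CPM in the HBR227 libraries A to D. Its 4 mutant libraries lay well below every N2 library, a log2 fold change of -1.01 ± 0.07 (SE; adjusted p = 6.5e-05), and T14G8.6 overlaps 2.74% of its exon length on the opposite strand. The second gene of that kind, T24H7.2, did not pass (-0.02 ± 0.06), nor did the HSP90 genes enpl-1 of the endoplasmic reticulum (-0.11 ± 0.05) and hsp-75 of mitochondria (-0.01 ± 0.06), or stc-1 (-0.16 ± 0.06). Without HBR227 A, stc-1 and enpl-1 were also lower, in a fit where 21.0% of all genes were called higher and 23.3% lower.

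**Figure D5:**
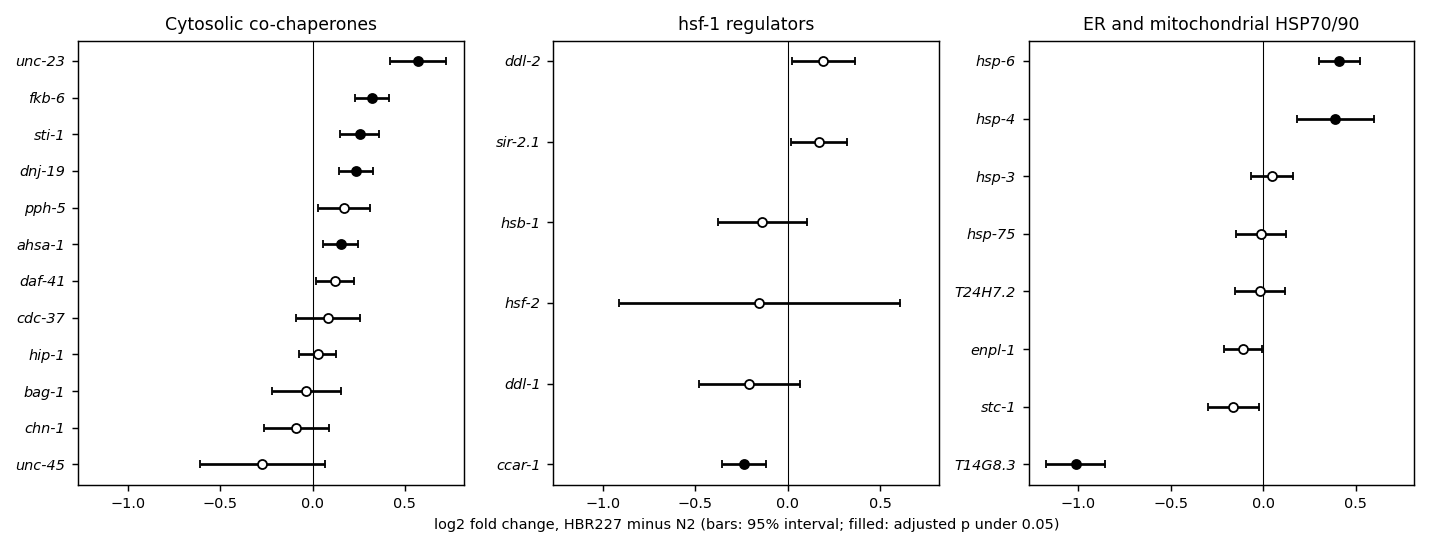
Log2 fold change of HBR227 minus N2 (x axes) with its 95% interval for 12 co-chaperone genes, 6 hsf-1 regulators and 8 organelle HSP70 and HSP90 genes, from all 8 libraries. Filled points passed an adjusted p of 0.05, and they include unc-23 (0.57 ± 0.07), ccar-1 (-0.24 ± 0.05), hsp-6 (0.41 ± 0.05) and T14G8.3 (-1.01 ± 0.07).

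The small heat shock genes of the hsp-16 group were all called higher, 6 of 6 where 11.2% of all genes were, from 0.41 for hsp-16.2 to 2.03 for hsp-16.49. Several of these are near-identical copies, so their separate values are uncertain.

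The genes whose profile over the 8 libraries lay closest to each chaperone were found by the root mean square distance of centred log2 CPM. For F44E5.4 these were the polyubiquitin gene ubq-1 (0.0238), the chaperonin subunit gene cct-6 (0.0266) and T26C5.3 (0.0292), where the median distance of all genes was 0.317. ubq-1 had 1118 CPM in N2 and 1464 in HBR227, and cct-6 271 and 360.4. For dnj-13 the closest were dct-1 (0.0268), F56B3.4 (0.0404) and bath-38 (0.0410). For hsp-90 they were nlp-6 (0.0176), ipla-2 (0.0220) and sod-4 (0.0271), and for hsp-1 cth-2 (0.0227), Y44A6C.1 (0.0234) and tat-2 (0.0284). Among the chaperones themselves, hsp-1 and hsp-90 were 0.0379 apart, dnj-12 and F44E5.4 0.0326, and hsp-110 and dnj-13 0.239. All of these profiles come from the same 8 libraries and share their depth and strain differences, with HBR227 A among them.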

How the data were processed

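Per the labels' protocols, worms were broken with beads, RNA was taken up in Trizol, and Illumina's standard library protocols were used. The authors deposited raw counts per gene for all 8 libraries, with no scaling. Bowtie 0.12.2 and the builds WBcel235 and mm8 are named without a role in the submitters' processing notes. The sources used here do not name the counting program, the annotation release, whether strand was used or how reads with several matches were treated. Coordinates and exon lengths are from Ensembl gene models of WBcel235, 1-based.

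The 11 rows whose gene name had become a date (at most 0.0357% of a library) were left out. The test was edgeR 4.0.16 in R 4.3.3: TMM scaling, filterByExpr with a minimum count of 10, and the robust quasi-likelihood F test, HBR227 against N2, no covariate. P-values were Benjamini-Hochberg adjusted over 17522 genes, and adjusted p under 0.05 was called. The SE was derived from the F statistic. The libraries are biological replicates per the labels, which mention no separate cultures, and p-values here reflect only how much these libraries vary. Any 2 libraries of a strain differed by more than counting error (chi-square per degree of freedom at least 4.44). That does not decide whether they came from separate cultures or RNA, since separate preparations can also differ by more than counting error. Log2 CPM used a prior count of 2.

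Alternatives were DESeq2 1.42.0, limma 3.58.1 voom, DESeq2 size factors, upper quartile and total count scaling, dropping the filter or asking for 1 CPM in 4 libraries, a threshold of 0.01, a block for the replicate letter, and leaving out single libraries. Scripts were tested on simulated data. Figures used Python 3.11.15 with matplotlib 3.10.9. The genes and lists were chosen with earlier results of these data known. Named genes were all 10 genes, called members of the other lists, aptf-1, and the 3 genes outside the 10 nearest in profile to each of hsp-1, hsp-90, dnj-13 and F44E5.4. Members of lists that were not called are named as well, after their values were seen.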

Additional observations from a re-analysis of the deposited data

Results flagged for a closer look

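In 8 of 64 groups of 4 libraries, 1 library lay far from the other 3 by Dixon's gap over range, and it was HBR227 A in all 8. Chance gives about 1 in 20 groups, but these groups are not independent, so the comparison is not a test. The ratios below all share the hsp-1 counts, which were themselves flagged, and F44E5.4 and F44E5.5 had almost the same counts. hsp-1 had 2995 CPM in HBR227 A, against 3639 to 3759.5 in the other HBR227 libraries. dnj-13 had 370.4 CPM in HBR227 A, against 319 to 325 in the other HBR227 libraries. hsp-16.41 had 459 CPM in HBR227 A, against 381 to 385 in the other HBR227 libraries. aptf-1 had 0.720 CPM in HBR227 A, against 1.03 to 1.09 in the other HBR227 libraries. The ratio of F44E5.4 plus F44E5.5 to hsp-1 counts was 7.50 in HBR227 A, against 6.61 to 6.66 in the other libraries of that strain. The ratio of hsp-90 to hsp-1 counts was 1.81 in HBR227 A, against 1.66 to 1.68 in the other libraries of that strain. The ratio of dnj-12 to hsp-1 counts was 0.156 in HBR227 A, against 0.129 to 0.133 in the other libraries of that strain. The ratio of dnj-13 to hsp-1 counts was 0.124 in HBR227 A, against 0.0864 to 0.0877 in the other libraries of that strain. Without HBR227 A, hsp-1 and dnj-13 were still called higher, and aptf-1 lower. HBR227 A was below the other mutant libraries for hsp-1 and aptf-1 and above them for dnj-13 and hsp-16.41.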

How the results depend on the processing

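Of the 10 genes, hsp-1, F44E5.4, F44E5.5, hsp-90, dnj-12 and dnj-13 kept their direction and their call under all 17 alternatives run, and hsp-70, stip-1 and hsf-1 were called under none. The size of the rises depended on the scale. With total counts, where the median of all genes was -0.11, they were 0.25 for hsp-1, 0.33 for F44E5.4 and F44E5.5 and 0.23 for hsp-90. For dnj-12 and dnj-13 they were 0.30 and 0.47. The call of hsp-110 was lost under 11, with upper quartile scaling (adjusted p = 0.0545) and total counts (0.127) among them. The number of the 10 called was 6 or 7 throughout, none lower. Over all genes, calls were 3774, and 1722 at an adjusted p of 0.01. With 1 library left out they were 2423 to 7906, the highest without HBR227 A. The split of calls was 1960 higher and 1814 lower, and 1174 and 3111 with total counts. Of the 12 co-chaperones 5 were called, 3 with total counts and 4 to 9 with 1 library left out. Of the 8 organelle genes 3 were called (2 higher, 1 lower), with total counts 4 (1 higher, 3 lower), 2 at an adjusted p of 0.01, where hsp-4 was lost, and 3 to 5 with 1 library left out. The sign turned, with no call on either side, for stip-1 with total counts (-0.0691) and for hsf-1 with no low-count filter (0.00130) and DESeq2 (0.000830). With 1 library left out, log2 fold changes were -0.0186 to 0.0631 for stip-1 and -0.0271 to 0.00826 for hsf-1, and log2 differences of the ratio to hsp-1 were -0.0367 to 0.0203 for hsp-110 and -0.00606 to 0.0850 for dnj-12. The cause was not tested.

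Replicate letters are shared by the strains, but deviations of same-lettered libraries correlated at only -0.01 to 0.14 across genes, and 3 of 8 libraries correlated best with their own letter, so the letters were not taken as pairs. With the letter as a replicate block, 3064 genes were called, and hsp-110 (0.33, adjusted p = 0.0851) and ahsa-1 (0.15, adjusted p = 0.0571) did not pass. The pair F44E5.4 and F44E5.5, summed, was at 0.43 there (adjusted p = 0.00235). Counting error was at most 2.38% for any of the 10 genes in any library.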
